A study of Bos taurus with 6 samples.

Results

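Chemokines, interleukins and the receptors that read them were examined in cultured bovine granulosa cells (GC), the steroid-producing cells that line the ovarian follicle. The genes were chosen by a symbol rule that uses no measured value, although earlier results of these data were known when it was set. It takes CC and CXC chemokines with CX3CL1, the CCR and CXCR receptors, and interleukins and their receptors. It also takes LIF, LIFR, IL6ST, OSMR, TNF, TNFRSF1A, TNFRSF1B, CSF1 and CSF2. IL1A, IL1B, the genes whose symbols start with IL1R, IL18 and IL33 were left out. Of the 26773 transcript clusters on the array, the Affymetrix Bovine Gene 1.0 ST, 131 met this rule, and they carry 126 distinct gene symbols. A transcript cluster is the array's unit for a gene.

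Primary GC from small to medium sized follicles were plated at normal density or at high density, which received 10 times as many cells per well, with 3 cultures each and 1 array per culture. Both densities received the same serum-free medium, α-MEM on collagen-coated plates, for 9 days. It held 20 ng/ml of FSH, 50 ng/ml of IGF-1 and, as the substrate of estradiol synthesis, 2 μM of androstenedione, so the densities differ in plating alone as far as the labels and methods state. The cells came from abattoir ovaries and were pooled over many follicles and cows of undefined cycle stage, so no culture stands for a single animal. The sources do not say which cultures share a pool, and p-values therefore measure the spread between these cultures.

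Chemokines are small secreted proteins that guide moving cells through G protein-coupled receptors. Most interleukins act instead through paired receptor chains that are bound to JAK kinases and pass the signal to STAT transcription factors, and members of the IL-6 family share the chain gp130, encoded by IL6ST. TNF signals through a pair of receptors to the NF-κB factors. In the ovary, cytokines and chemokines are known from ovulation, which resembles an inflammatory reaction, and from the leukocytes that enter the follicle wall and the corpus luteum.

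Signals are RMA values on the log2 scale, and a change is the log2 fold change, high minus normal density, with its standard error (SE) from limma. Adjusted p-values are limma's, corrected by Benjamini-Hochberg across the 26773 transcript clusters of the array. A transcript cluster is termed called when its fold change exceeds 1.5 in size and its p and false discovery rate (FDR) lie below 0.05, the thresholds of the study's methods. The background level of 4.62 is the 95th percentile of the signals of 82 reporter control rows. Of 9 granulosa markers examined, 5 were called lower at high density (55.6%, against 3.51% of all transcript clusters). All 9 were above the background level in at least one density, among them FSHR and CYP19A1. None of 12 leukocyte markers reached it (0 called by limma, 2 with an unadjusted p below 0.05). PTPRC, the gene of the pan-leukocyte antigen CD45, had signals of 2.16 ± 0.11 and 1.94 ± 0.11 (SD, n = 3). Its change was −0.22 (adjusted p = 0.144). CD14 moved the other way, with its mean rising from 3.91 to 4.32, a change of 0.41 (adjusted p = 0.0553). PTPRC and CD14 were the 2 with an unadjusted p below 0.05, and for neither did the groups overlap. The summed linear signal of the leukocyte list was 118.4 to 119.2 at normal and 114.6 to 133.0 at high density. High density replicate 2 stood apart from the other high density cultures, with an array weight of 0.289 against 0.824 to 1.659 for the other five arrays.

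Of the 131 transcript clusters, 7 were called higher and 2 lower at high density. This is 6.87%, beside 7.49% of all transcript clusters (3.97% higher and 3.51% lower). A group mean above background was found for 20.6% of the 131 and for 48.8% of all transcript clusters. CXCR4, IL4R, TNFRSF1B, IL10RA, LIF, CXCR7 and IL21R rose, while CSF1 and IL13RA2 fell. The median change was 0.06, against 0.02 over all transcript clusters, and 98 of the 131 had a change of less than 0.2 in size on the log2 scale. Without high density replicate 2 the same 9 transcript clusters were called. At any fold change, 17 passed the FDR threshold (13.0%, against 19.1% of all transcript clusters), 11 of them upward and 6 downward (8.64% and 10.4% of all transcript clusters). The cultures of both densities did not overlap in 32 of the 131 transcript clusters (24.4%, against 37.3% of all). Groups were apart with high density higher in 22 of the 131, and in 4775 of all 26773 transcript clusters (17.8%). In bulk cultures like these, fewer cells of a kind and less RNA per cell cannot be told apart.

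**Figure D1:**
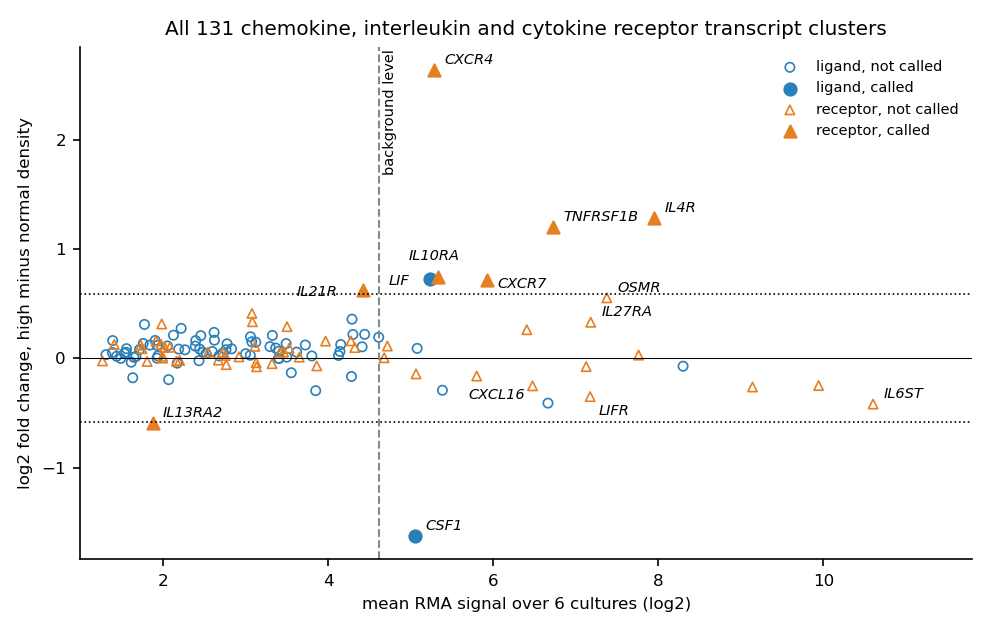
Each point is a chemokine, interleukin or receptor transcript cluster, placed by its mean RMA signal over 6 cultures (x axis, log2) and its log2 fold change, high minus normal density (y axis); circles are ligands, triangles receptors, filled symbols were called, dotted lines mark the fold change threshold and the dashed line the background level. Most points crowd around 0 to the left of the background level, and CXCR4 and CSF1 lie farthest from 0.

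Ligands and receptors were detected to different extents. The higher of the group means exceeded the background level for 27 of the 131 transcript clusters, 7 of 75 ligands and 20 of 56 receptors, as given above. No member of the 33 remaining interleukins, which include IL4, IL10 and IL13, passed it. Of the 104 transcript clusters with both means at or below the level, 103 were not called. Among the 27, the receptors IL28RA, IL22RA1 and IL21R and the ligand CCL17 lay within 0.2 of the level. CXCR4, IL21R, CSF1 and CCL17 exceeded it in one density alone.

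**Figure D2:**
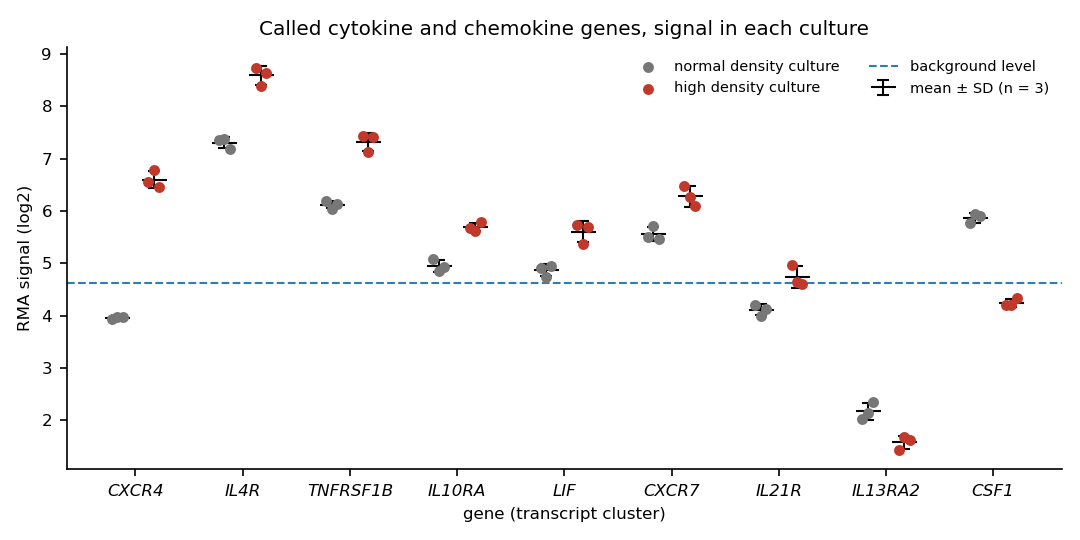
RMA signals (y axis, log2) of the 9 called genes (x axis) in each culture, grey for normal and red for high density, with the mean and SD of 3 cultures in black and the background level as a dashed line. For all 9 genes the red and grey points do not overlap, CXCR4 and IL21R cross the background level upward, CSF1 crosses it downward and IL13RA2 stays below it.

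Among the chemokine receptors, the change was largest for CXCR4 (transcript cluster 12774525), the receptor for CXCL12 that guides migrating and homing cells. Its log2 signals were 3.93, 3.98 and 3.97 in the normal density cultures and 6.55, 6.78 and 6.46 in the high density cultures. Every high density culture thus lay well above every normal density culture, and the latter were all below the background level. CXCR4 rose by 2.64 on the log2 scale (SE 0.09, adjusted p = 1.09e-05), a measured 6.21-fold change. Because the normal density signal has only a bound, the rise is given as at least 3.94-fold, from the high density mean of 6.60 against the background level. Leaving out single cultures gave values between 2.54 and 2.70.

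CXCR7 (12837477), listed as ACKR3 in the current RefSeq annotation and known as a scavenging receptor for the same ligand, rose as well. Signals of 5.51, 5.71 and 5.46 at normal density stood against 6.48, 6.27 and 6.08 at high density. The groups did not overlap and all values were above background. Its change was 0.72 (SE 0.12, adjusted p = 0.0057), a 1.64-fold rise. CXCL12 (12827012), the chemokine that binds both, was well above background in all cultures, with 8.40, 8.42 and 8.18 at normal and 8.23, 8.22 and 8.34 at high density. The cultures of both densities overlapped, and the change of −0.07 (SE 0.09) did not pass the test (adjusted p = 0.621).

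None of the other 16 chemokine receptor transcript clusters was called or reached the background level. CXCR2, a receptor for neutrophil-attracting chemokines, is measured by 3 transcript clusters, with changes of −0.03, 0.13 and 0.33 and adjusted p of 0.829, 0.414 and 0.0555. Of these, 2 carry the same transcript accession. The RefSeq annotation lists CXCR2 also as an older name of the neighbouring CXCR1, so whether all 3 measure CXCR2 alone is uncertain.

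No chemokine chosen by the symbol rule was called in either direction. For the 19 CC chemokines limma called 0, with 2 at an unadjusted p below 0.05. The methods' t-test, which stands here for the analysis of variance that the methods name and that equals it for a pair of groups, also called 0. Their changes were between −0.29 and 0.31. Only CCL25, CCL3 and CCL17 had a group mean above background, and CCL25, which attracts immune cells of the gut and thymus, fell short of the test with a change of −0.29 (adjusted p = 0.0623). CCL2, the main monocyte attractant, was at 2.17 ± 0.30 and 1.97 ± 0.14 (SD, n = 3), below background at both densities.

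For the 14 transcript clusters of CXC chemokines and CX3CL1 limma called 0, with 2 at an unadjusted p below 0.05, and the methods' t-test called 0. CXCL16 (12762860), a membrane-bound chemokine that is also a scavenger receptor, had signals of 6.81, 6.80 and 7.0 at normal and 6.29, 6.60 and 6.49 at high density. These did not overlap, and the change of −0.41 (SE 0.10, adjusted p = 0.0312) passed the FDR threshold without reaching the fold change threshold. IL8, now named CXCL8 and the leading neutrophil attractant, was below background at both densities, at 2.08 ± 0.13 and 2.36 ± 0.19 (SD, n = 3), and CXCL2 was likewise below it in both of its transcript clusters.

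The largest change among the interleukin receptors was that of IL4R (12811598), the signalling chain shared by the receptors for IL-4 and IL-13. It gave 7.35, 7.38 and 7.18 at normal density and 8.73, 8.39 and 8.64 at high density. All values were above background, and the lowest high density culture was more than 1.0 above the highest normal density culture. The change was 1.28 (SE 0.11, adjusted p = 2.86e-04), a 2.44-fold rise.

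No chain that joins IL4R in a signalling receptor was called. IL13RA1 (12907364), its partner in the receptor found on cells outside the blood lineages, was among the strongest signals of the family with 10.10, 10.05 and 10.05 at normal and 9.73, 9.96 and 9.76 at high density. The high density cultures were all lower, but the change of −0.25 (SE 0.08) did not pass the FDR threshold (adjusted p = 0.0783). It passed without high density replicate 2 (−0.32, adjusted p = 0.0124) and with array weights (−0.30, adjusted p = 0.0133). IL2RG, the partner chain of blood cells, was below background at both densities, at 3.39 ± 0.09 and 3.44 ± 0.14 (SD, n = 3). IL13RA2 (12906615), regarded as a decoy that binds IL-13 without JAK signalling, was called lower with a change of −0.59 (SE 0.11, adjusted p = 0.00836). Its signals of 2.03, 2.13 and 2.35 and of 1.43, 1.67 and 1.63 were all below background, so no fold is given, and the call did not hold with normal density replicate 3 left out (−0.50) or with high density replicate 1 left out (−0.52). The ligands IL4, with a change of 0.14, and IL13, with 0.03, were below background and not called.

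IL21R (12814225), a receptor known from lymphocytes, had signals of 4.21, 4.0 and 4.13 at normal and 4.97, 4.64 and 4.60 at high density. The high density cultures were all higher, with replicate 1 above the other 2 and replicate 3 just below the background level. A change of 0.63 (SE 0.12, adjusted p = 0.00919) was close to the threshold, and with normal density below background the rise is at least 1.09-fold. The call was lost with normal density replicate 2 left out (0.57), with high density replicate 1 left out (0.51) and, over all cultures, with the methods' t-test (adjusted p = 0.0617). Its ligand IL21 was below background with a change of 0.08.

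For IL-10, a cytokine that restrains inflammation, the ligand-binding chain rose and the shared chain did not pass the test. IL10RA (12727788) gave 5.08, 4.85 and 4.93 at normal and 5.68, 5.63 and 5.78 at high density, with all high density cultures higher. Its change was 0.74 (SE 0.09, adjusted p = 0.00119), a 1.67-fold rise. IL10RB (12687070), which also serves the receptors for IL-22 and interferon lambda, gave 7.74, 7.81 and 7.70 and then 7.74, 7.84 and 7.75, overlapping values with a change of 0.03 (SE 0.07, adjusted p = 0.819). IL10 itself was below background, with a change of 0.08.

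Of the 29 interleukin receptors outside the gp130 family, 11 were above background in at least one density. Of the 29, 3 were called higher and 1 lower (13.8%, against 7.49% of all transcript clusters). IL15RA, the chain that presents IL-15, had a change of 0.26 (adjusted p = 0.0528), and IL17RA, the common chain of the IL-17 receptors, of −0.25 (adjusted p = 0.114). Groups did not overlap for either, but neither passed the FDR threshold. IL2RA, the high affinity chain for IL-2, passed the FDR threshold with a change of 0.29 (adjusted p = 0.0215), at signals of 3.36 ± 0.04 and 3.65 ± 0.04 (SD, n = 3) below background.

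**Figure D3:**
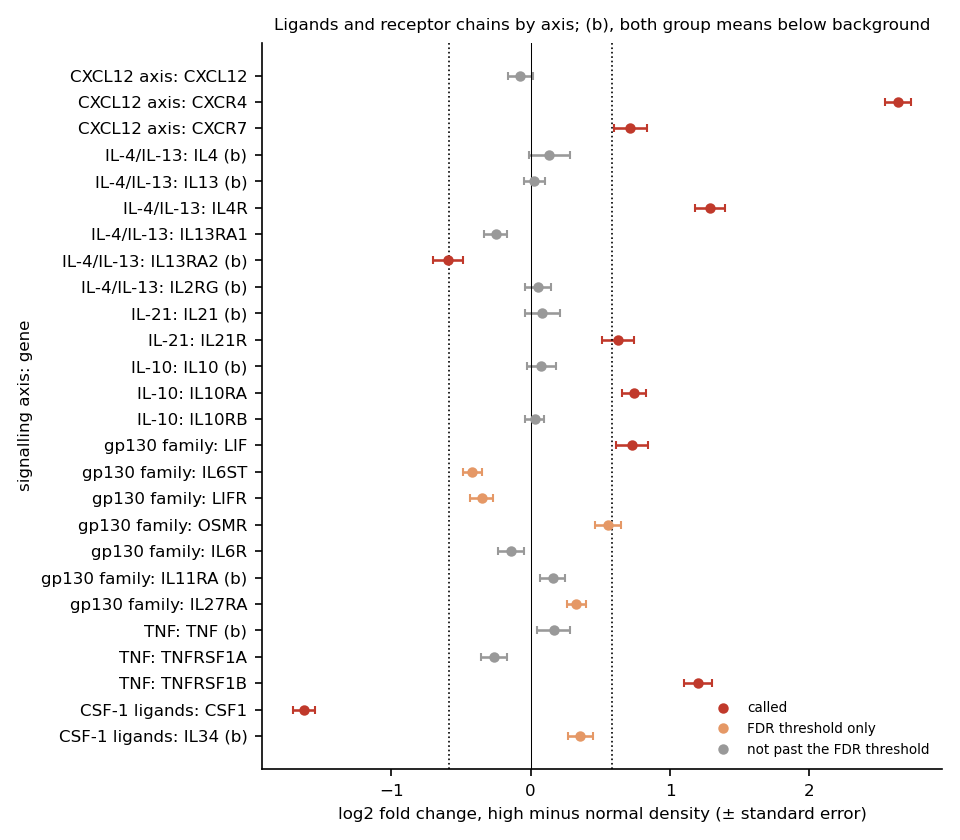
Log2 fold changes, high minus normal density, with standard errors (x axis) of ligands and receptor chains grouped by signalling axis (y axis); red points were called, orange points passed the FDR threshold only, dotted lines mark the fold change threshold and (b) marks genes with both group means below background. CXCR4, IL4R, TNFRSF1B and IL10RA lie to the right of the threshold while the partner genes CXCL12, IL13RA1, TNFRSF1A and IL10RB lie within it.

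In the gp130 family, 1 ligand was called and the receptor chains moved by smaller amounts in both directions. LIF (12745282), leukemia inhibitory factor, was one of the called ligands, with signals of 4.92, 4.74 and 4.96 at normal and 5.73, 5.37 and 5.70 at high density. Replicate 2 was the lowest at high density, yet it was above all normal density cultures. The change was 0.73 (SE 0.12, adjusted p = 0.00487), a 1.66-fold rise, and 0.84 without high density replicate 2.

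Limma called 0 of the 7 gp130 family receptors, as did the methods' t-test. At any fold change, 4 passed the FDR threshold (57.1%, against 19.1% of all transcript clusters), and the same number had an unadjusted p below 0.05. Of the 7, 5 were above background at both densities, and the 4 were among them. Of all 13077 transcript clusters above background in at least one density, 31.9% passed the FDR threshold. Of these 13077, 12148 were above it at both densities, and the others had to differ between the densities to enter. The shares of 57.1% and 31.9% thus rest on unlike sets. OSMR (12787462), the chain for oncostatin M, had signals of 7.13, 7.10 and 7.06 and then 7.66, 7.80 and 7.49. Its change of 0.55 (SE 0.09, adjusted p = 0.00612) stayed under the fold change threshold of 0.58 on the log2 scale, and it was called without high density replicate 3 (0.64). LIFR (12786277), the chain for LIF, gave 7.32, 7.40 and 7.32 and then 6.95, 7.14 and 6.90. It moved the other way, by −0.35 (SE 0.08, adjusted p = 0.0256). LIFR did not pass the FDR threshold with the methods' t-test (adjusted p = 0.0652) or with any single culture other than high density replicate 2 left out (adjusted p = 0.0747 to 0.0972). IL6ST (12785824), the gp130 chain that both receptors need, gave 10.80, 10.78 and 10.85 and then 10.33, 10.44 and 10.41, a change of −0.42 (SE 0.07, adjusted p = 0.0052). No high density culture of OSMR, LIFR or IL6ST lay within the range of the normal density cultures.

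The difference of OSMR minus LIFR within a culture moved from −0.25 ± 0.06 to 0.65 ± 0.07 (SD, n = 3), a shift of 0.90 on the log2 scale. Signals of different transcript clusters are not comparable in level, so only this shift is of use, and it is given with no test because the pair was chosen after its values were seen. IL27RA (12885382), a receptor for IL-27 that also pairs with gp130, gave 7.05, 7.03 and 6.97 and then 7.38, 7.32 and 7.33, a change of 0.33 (SE 0.07, adjusted p = 0.0126). IL6R, the IL-6 binding chain, was above background with a change of −0.14 (adjusted p = 0.342). Both transcript clusters labelled IL6 were below background, and one of them, 12890465, carries an accession that the current annotation gives to LOC517016.

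Of the TNF receptors, TNFRSF1B was called and TNFRSF1A was not. TNFRSF1B (12738690), the receptor without a death domain that is best known from immune and endothelial cells, had signals of 6.19, 6.05 and 6.13 at normal and 7.44, 7.12 and 7.40 at high density. All were above background and the densities were far apart. The change was 1.20 (SE 0.10, adjusted p = 2.85e-04), a 2.30-fold rise. TNFRSF1A (12857267), the widely expressed death domain receptor, gave 9.28, 9.24 and 9.30 and then 9.14, 8.83 and 9.05. Its change of −0.26 (SE 0.09) did not pass the FDR threshold (adjusted p = 0.0959), although the groups did not overlap. With each array centred on its median it did (−0.31, adjusted p = 0.0390). The shift of TNFRSF1B relative to TNFRSF1A was 1.46, with SDs of 0.06 and 0.03 within the densities, again without a test. TNF was below background, with a change of 0.17.

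CSF1 (12842594), the growth factor of macrophages, showed the largest fall of the family. Its signals were 5.76, 5.93 and 5.91 at normal density and 4.20, 4.20 and 4.33 at high density. The normal density cultures were all above background and the high density cultures all below it. The change was −1.62 (SE 0.08, adjusted p = 3.37e-05), a measured 3.08-fold fall and, against the background level, at least 2.38-fold lower. With single cultures left out the values were between −1.68 and −1.59. IL34, the other ligand of the same receptor, had signals of 4.24, 3.99 and 4.10 and then 4.43, 4.39 and 4.58, a change of 0.36 (SE 0.09, adjusted p = 0.0345) at means below background. CSF1R, the receptor of both, was below background at both densities, with 3.67 ± 0.05 and 3.75 ± 0.13 (SD, n = 3).

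No interleukin of the remaining 33 ligand transcript clusters was called by limma or by the methods' t-test, and 3 had an unadjusted p below 0.05 in limma. All changes were between −0.30 and 0.22. IL23A, a subunit of IL-23, was the one interleukin past the FDR threshold, with a change of −0.30 (adjusted p = 0.0408) at signals of 4.0 ± 0.05 and 3.70 ± 0.11 (SD, n = 3). Both means were below background, as were those of all 33.

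Cytokine genes often lie in clusters in the genome. By the gene order of the RefSeq table of assembly ARS-UCD2.0, 35 pairs of members are direct neighbours among protein-coding genes, of the 130 transcript clusters that could be matched to that table. Only 1 pair was called in both members, IL4R with IL21R, and both rose. In 1 further pair, OSMR with LIFR, both members passed the FDR threshold, and they moved in opposite directions, with the limits given above for LIFR. The chemokine clusters around CCL2 and around IL8 held no called gene.

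Kinases, transcription factors, other ligands and other receptors of cytokine signalling that the symbol rule leaves out formed a second list of 105 transcript clusters. Of these, 5 were called higher and 1 lower (5.71%, against 7.49% of all transcript clusters), and their median change was 0.06. The called receptors were TNFRSF10D, a decoy receptor for TRAIL, with a change of 1.78 (SE 0.12, adjusted p = 1.00e-04), and TNFRSF21, a death domain receptor, with 1.45 (SE 0.07, adjusted p = 3.16e-05). The called ligands were TNFSF4, known as OX40 ligand, with a change of 0.91, and MIF, macrophage migration inhibitory factor, with 0.76 (adjusted p = 6.10e-04 and 0.00358). No culture of one density lay within the range of the other for any of these 4 genes.

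Among the 23 JAK-STAT genes limma called 0, with 7 at an unadjusted p below 0.05, and the methods' t-test called 0. STAT6, the factor activated through IL4R, gave 7.27, 7.27 and 7.17 at normal and 7.89, 7.56 and 7.72 at high density, and its change of 0.49 (SE 0.10, adjusted p = 0.0128) passed the FDR threshold. It was the only 1 of the 23 to pass it upward. Of all transcript clusters, 8.64% passed the FDR threshold upward and 10.4% downward. STAT2, which carries interferon signals, fell past the same threshold by 0.40 (adjusted p = 0.00843). SOCS4 and PIAS1 also passed the FDR threshold downward, with changes of −0.56 and −0.36 (adjusted p = 0.01 and 0.0142). STAT3, the main factor downstream of gp130, had a change of −0.06 and SOCS3, its feedback inhibitor, of 0.14, and neither passed the test (adjusted p = 0.6 and 0.398).

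In the 24 NF-κB genes 1 was called in each direction (8.33% together, against 7.49% of all transcript clusters). REL, the c-Rel subunit, fell from 6.82, 6.66 and 6.78 to 5.54, 5.96 and 5.49, a change of −1.09 (SE 0.13, adjusted p = 0.00134). TNIP1, a partner of the inhibitor A20, rose from 6.45, 6.55 and 6.41 to 7.34, 7.10 and 7.14, a change of 0.72 (SE 0.09, adjusted p = 0.0015). For both genes the densities did not overlap. At any fold change, 7 of the 24 passed the FDR threshold, 5 upward and 2 downward (29.2%, against 19.1% of all transcript clusters). NFKB1 and TNFAIP3, the gene of A20, passed it without being called, with changes of 0.36 and 0.47. NFKBIZ and TRAF5 did so with 0.29 and 0.28, TRAF5 at means below background. TRAF3 passed it downward with −0.29, while RELA did not pass it with −0.07 (adjusted p = 0.601).

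**Figure D4:**
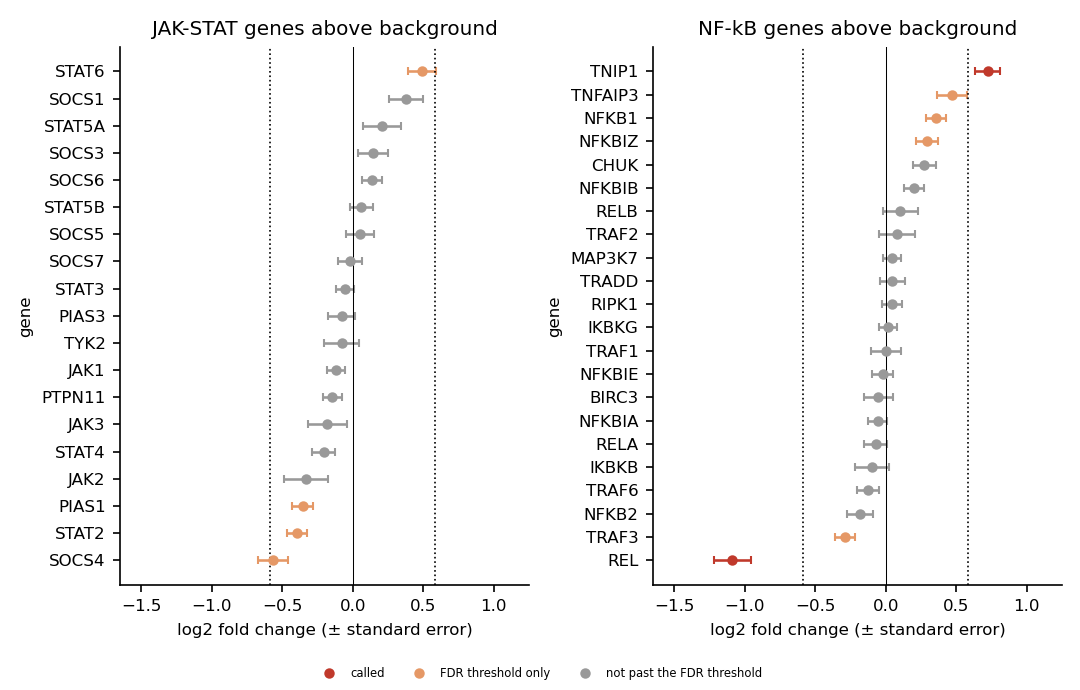
Log2 fold changes, high minus normal density, with standard errors (x axes) of JAK-STAT genes (left, all but 1) and NF-κB genes (right) that were above background in at least one density; red points were called, orange points passed the FDR threshold only and dotted lines mark the fold change threshold. TNIP1 and REL are the red points, and STAT6 stands highest among the JAK-STAT genes at 0.49.

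Markers of other cells were set beside the receptors that rose. Besides the leukocyte list above, 2 of 7 endothelial markers were above background, VWF and CLDN5, while PECAM1 and CDH5 were below it at both densities. The summed linear signal of the endothelial list was 96.7 to 101.8 at normal and 252.9 to 290.0 at high density, most of which was the rise of CLDN5 by 2.81. Of 6 theca markers, 4 were above background and INSL3, ACTA2 and COL1A1 were called higher, while CYP17A1, the theca enzyme of androgen synthesis, was at 2.93 ± 0.08 and 2.93 ± 0.11 (SD, n = 3). LHCGR, the luteinizing hormone receptor, was called lower with a change of −1.20 at means below background. The study also followed LHCGR in GC, so it is not particular to theca cells. Its methods describe an isolation that can give nearly pure GC, free of theca cells. The summed signal of this list was 525.4 to 567.5 at normal and 1156.6 to 1289.6 at high density. The part of these markers in the changes of CXCR4, IL4R, TNFRSF1B and the other called genes was not tested.

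**Figure D5:**
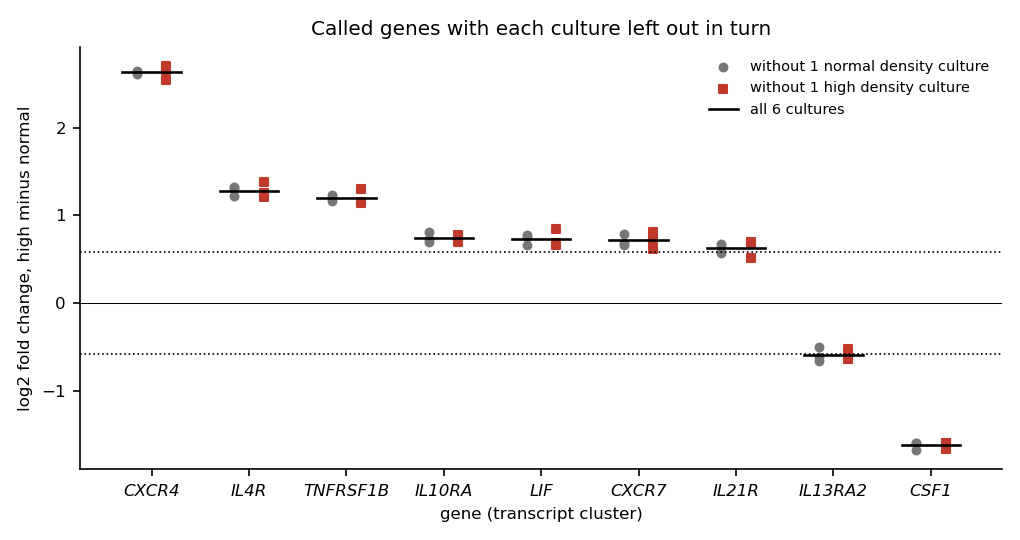
Log2 fold changes, high minus normal density (y axis), of the 9 called genes (x axis) with all 6 cultures (black line) and with each normal (grey) or high density culture (red) left out in turn; dotted lines mark the fold change threshold. CXCR4, IL4R, TNFRSF1B and CSF1 stay far outside the threshold, and IL21R and IL13RA2 cross it.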

How the data were processed

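RNA from 6 GC cultures was hybridized to Bovine Gene 1.0 ST Arrays. Per the labels and methods, the authors processed the scans in Expression Console with RMA, and the deposited table holds log2 signals per transcript cluster, already background reduced, normalized and summarized. RMA equalizes probe signal distributions before it summarizes them, so a change common to most genes could not be seen in full. The medians of the 6 arrays in the table still ranged from 4.34 to 4.43. The table holds 0 columns of other samples. The genome build is not given in the sources used here.

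The high and normal density cultures were compared by lmFit and eBayes of limma 3.58.1 (R 4.3.3), without covariates and over all 26773 transcript clusters. The number of arrays limits the precision. Symbols are those of the table, and 130 of 131 transcript clusters matched a RefSeq gene, 59 by accession. Every transcript cluster of a symbol is counted separately. Figures were drawn with matplotlib 3.10.9. The fit was tested on simulated data.

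The genes, lists and tests were chosen with earlier results of these data known. Named are all called genes with separated groups, the 8 strongest signals not called, ligands and receptors of called genes, and up to 6 rises and 6 falls of the second list. Other named genes were chosen after their values were seen. The alternatives were the methods' t-test (their analysis of variance, for a pair of groups) and its Welch version, other variance priors, array weights, a replicate block, other normalizations, filters on low signals, treat, an FDR threshold of 0.01, identical transcript clusters counted once, and single cultures left out. The values of 1 gene of the second list are not reported here.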

Additional observations from a re-analysis of the deposited data

How the results depend on the processing

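Calls near the fold change threshold and signals near background limit these results. Of the 28 named transcript clusters, 492 values were recomputed under the alternatives, of which 458 kept direction and stayed called or not called, 24 kept direction and lost the call and 2 gained it (OSMR). The other 8 changed sign, all at changes that were not called under any setting. They were IL10RB (−0.0149) and IL13 (−0.0164) with each array centred on its median, IL13 (−0.0163) under a second quantile normalization, and, with single cultures left out, IL10RB (−0.0014 to 0.0582), IL13 (−0.0145 to 0.0542), IL10 (−0.0076 to 0.16) and IL21 (−0.0587 to 0.17). The losses came from the Welch version (9), treat, which tests against the fold change threshold itself (9), the methods' t-test (2) and single cultures left out (4).

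The 7 genes called higher became 6 with the methods' t-test (without IL21R), 4 with its Welch version (without IL21R, CXCR7 and LIF) and 3 with treat (without these and IL10RA), and 6 to 8 with single cultures left out. The 2 called lower became 1 with the methods' t-test, its Welch version, treat and both filters on low signals, and 1 to 2 with single cultures left out, since IL13RA2 was lost. CXCR4, IL4R, TNFRSF1B and CSF1 were called in every alternative run. The fall of IL13RA1 passed the FDR threshold, without being called, under 5 alternatives (adjusted p = 0.0124 to 0.0367) and that of TNFRSF1A under 4 (adjusted p = 0.0390 to 0.0487). LIFR failed it under 8 (adjusted p = 0.0652 to 1.0), IL27RA under 3, OSMR under 2 and IL6ST under 1, treat among them for each. The changes of these genes lie under the threshold that treat tests against, so their failure under treat was fixed in advance. For IL6ST treat was the only failure. In the second list the 5 called higher became 1 with the Welch version and 2 with treat, and 5 to 6 with single cultures left out. The 1 called lower, REL, became 0 with the Welch version (9 lower at an unadjusted p below 0.05) and 0 with treat (1 lower at an unadjusted p below 0.05). It became 2, with SOCS4, under array weights or with each array centred on its median, and 1 to 2 with single cultures left out (2 where replicate 2 of either density was left out). Same-numbered cultures of both densities deviated from their group means with correlations of 0.046, −0.046 and −0.041. Differently numbered cultures gave −0.071 to 0.09. With 3 cultures per density, these values cannot show whether same-numbered cultures share a cell pool. With the replicate block the counts were 7, 2, 5 and 1, so the replicate block changed none of these counts. Transcript clusters below background gave no value under the filters on low signals.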
